A study of Mus musculus with 12 samples.

Results

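The Notch set comprised 10 genes, the receptors Notch1, Notch2, Notch3 and Notch4, the ligands Jag1, Jag2 and Dll1, and the target genes Hes1, Hey1 and Heyl. They were taken by symbol from the 22063 genes of the expression table, and all 10 had a row. The rule used symbols and no values, but the set was chosen with earlier results of these data known. Its shares beside those of all genes are therefore a description. Counts of 9 of the 10 were high enough to be tested, and Heyl was left out by the filter on low counts and is given as counts.

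Mesenchymal cells were taken from the mandibular condyle, the growth and joint head of the lower jaw, of Plagl1 fl/fl mice at postnatal day 1.5 and were used at passage 2. Plagl1 encodes an imprinted zinc-finger transcription factor, and its floxed allele was carried by the cells of every group. The 12 libraries formed 4 groups of 3. OI-AdV-CRE-EGFP cells received an adenovirus for Cre and EGFP and then 4 days of osteogenic induction. OI-AdV-EGFP cells received an adenovirus for EGFP alone and the same induction. AdV-CRE-EGFP and AdV-EGFP cells received these viruses and were collected at day 0. Each virus was given at a multiplicity of infection of 100, and the induction medium was α-MEM with 5 mM β-glycerophosphate, 50 ug/ml ascorbic acid and 100 nM dexamethasone. No day 4 library without induction medium was analysed here, so that induction and 4 more days of culture cannot be told apart. No source states that the replicates were separate cultures or animals, and the p-values measure the spread between these libraries.

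The totals were 15316989 to 18052040 estimated counts per library. Plagl1 itself was not lower in the libraries labelled as given Cre: it averaged 385 ± 18.04 CPM in OI-AdV-CRE-EGFP and 391 ± 11.2 CPM in OI-AdV-EGFP cells, and 589 ± 6.46 CPM in AdV-CRE-EGFP and 401 ± 21.96 CPM in AdV-EGFP cells (SD, n = 3 each). A total per gene cannot show the loss of a floxed exon, so that these values do not check the deletion. CPM are counts relative to library size, after scaling by the trimmed mean of M-values. Of the defining markers, the osteoblast and mesenchymal lists were high in all libraries (summed 7627 to 11173 and 14328 to 20174 CPM), and the blood list stayed at or below 0.423 CPM. Most of the osteoblast sum was Col1a1 (6007, 5731, 5029 and 5921 CPM in OI-AdV-CRE-EGFP, OI-AdV-EGFP, AdV-CRE-EGFP and AdV-EGFP cells) and Spp1 (4999, 4184, 2606 and 3345 CPM). In the same order, Ibsp averaged 4.49, 220, 20.9 and 28.8 CPM, Alpl 2.34, 12.3, 2.03 and 2.28 CPM, and Sp7 0.929, 3.62, 1.32 and 2.61 CPM. Unlike the sum, these were highest in OI-AdV-EGFP cells, whereas Runx2 was highest in AdV-CRE-EGFP cells (49.1 CPM).

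Notch receptors are single-pass membrane proteins that are activated by Jagged and Delta-like ligands on a neighbouring cell. Ligand binding exposes the receptor to an ADAM protease and then to γ-secretase, which releases an intracellular domain that joins the DNA-binding protein RBPJ and Mastermind proteins and turns on Hes and Hey genes, which encode transcriptional repressors. In the skeleton the pathway is known for keeping mesenchymal progenitors undifferentiated and for restraining osteoblast maturation.

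Compared per transcript length, by the FPKM of the authors, Jag1, Notch2 and Hes1 were the most abundant of the 10 genes in every group. In OI-AdV-CRE-EGFP cells the order of mean FPKM was Jag1 (9.21), Notch2 (8.42), Hes1 (7.36), Notch3 (4.06), Notch1 (2.61) and Hey1 (0.613), and no neighbours in this order overlapped between libraries. In OI-AdV-EGFP cells the order was the same, with Jag1 at 13.2, Notch2 at 10.4, Hes1 at 8.10, Notch3 at 7.24, Notch1 at 3.86 and Hey1 at 1.02 FPKM, and the libraries of Hes1 and Notch3 overlapped. Before induction Notch2 came first and Jag1 after Hes1. In AdV-CRE-EGFP cells Notch2 had 14.8, Hes1 13.3, Jag1 6.85, Notch1 3.93 and Notch3 2.92 FPKM, all without overlap between neighbours. In AdV-EGFP cells Notch2 (17.9 FPKM) and Hes1 (17.7 FPKM) overlapped, followed by Jag1 (7.64 FPKM), Notch1 (5.00 FPKM) and Notch3 (3.90 FPKM). The remaining genes had mean levels of at most 0.361 FPKM in every group, apart from Hey1 after induction.

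**Figure D1:**
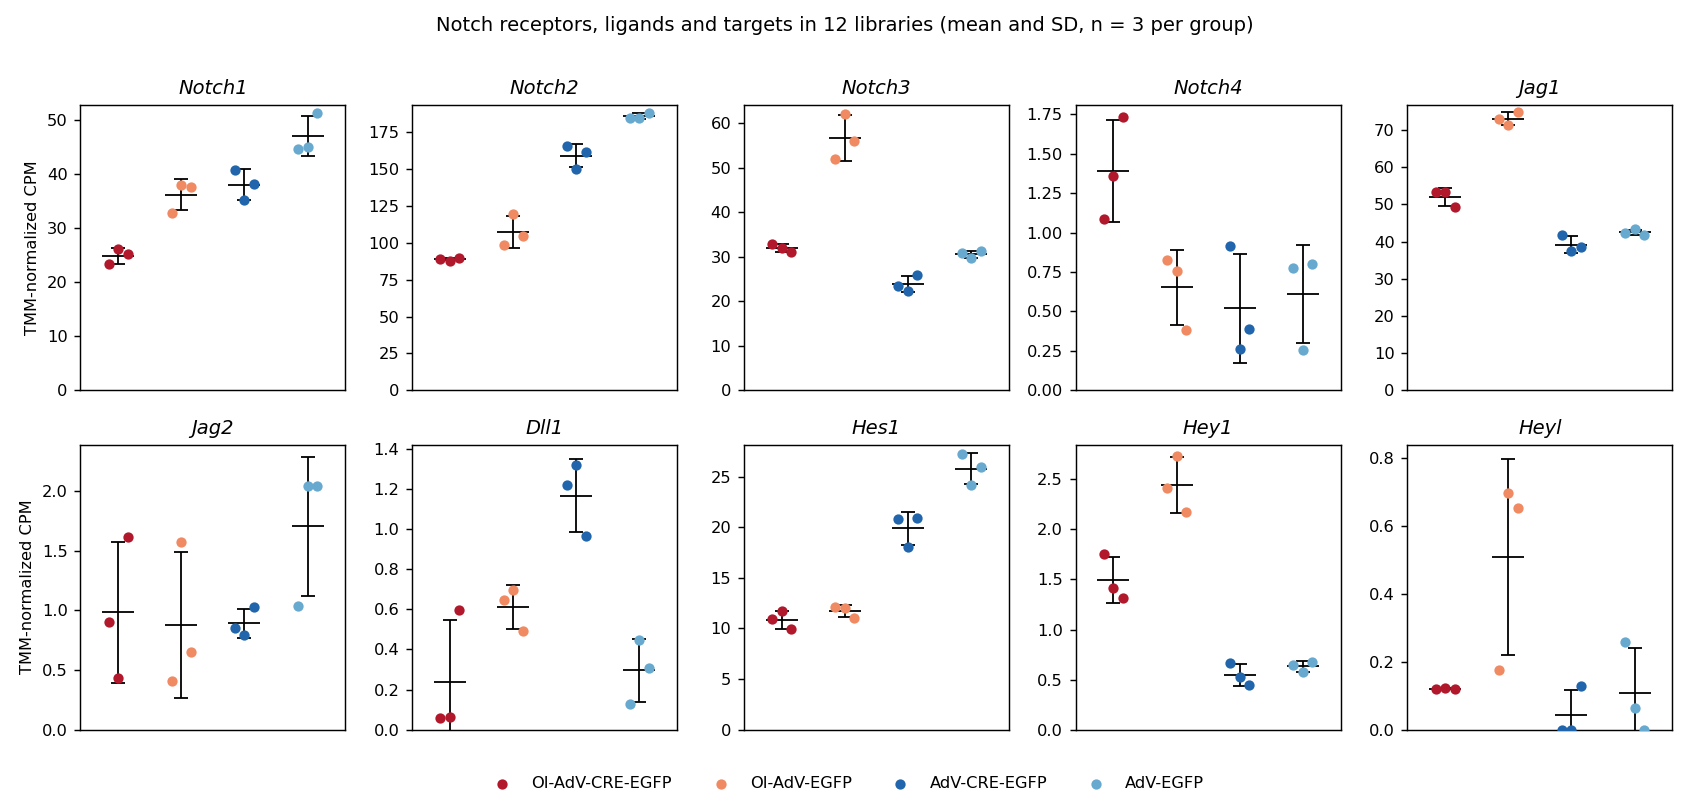
CPM of the 10 genes in each of the 12 libraries, with 1 panel per gene and its own axis from 0; points are libraries, long bars the group mean and whiskers the SD (n = 3), cut off at 0. Notch3, Jag1 and Hey1 were highest in OI-AdV-EGFP cells, Notch1, Notch2 and Hes1 were highest in AdV-EGFP cells, and Notch4, Jag2, Dll1 and Heyl stayed near or below 2 CPM.

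After induction, Cre-treated cells had less receptor and ligand RNA than cells given EGFP alone. Notch1, Notch2, Notch3, Jag1 and Hey1 were lower at an adjusted p below 0.05, 5 of the 9 genes tested against 20.6% of the 13670 genes tested, and Notch4 alone was higher, against 19.8%. None of the 5 fell by at least 2-fold, the second criterion for a call, which 2.61% of all genes met in this direction. Notch4 met both criteria for a higher level, against 2.46% of all genes. By CPM the libraries of the same 6 genes did not overlap, 5 with Cre lower and 1 with Cre higher, against 26.1% and 24.3% of all genes. The median log2 fold change was -0.49 over the 9 genes and -0.01 over all genes tested.

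At day 0 Notch1, Notch2, Notch3 and Hes1 were lower in Cre cells, 4 of 9 genes against 13.5% of all genes, and none reached 2-fold, against 0.556%. Dll1 was the only gene of the set called higher, against 2.6% of all genes with both criteria and 15.8% with the adjusted p alone. The libraries did not overlap for Dll1, and for 5 genes with Cre lower (these 4 and Jag2), against 21.2% and 19.5% of all genes. The median log2 fold change was -0.23 over the 9 genes and -0.01 over all genes.

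Induction moved the set in both directions. In EGFP cells 3 of 9 genes were higher (Notch3, Jag1 and Hey1) and 3 lower (Notch1, Notch2 and Hes1), against 39.7% and 36.5% of all genes. Hey1 was higher and Hes1 lower by at least 2-fold, against 15.1% and 10.8% of all genes. The libraries did not overlap for 4 higher genes (these 3 and Dll1) and 3 lower ones, against 40.1% and 37.0%. In Cre cells 4 of 9 were higher (the same 3 and Notch4) and 4 lower (the same 3 and Dll1), against 35.9% and 35.3% of all genes. Notch4 and Hey1 were higher and Dll1 was lower by at least 2-fold, against 12% and 8.62%. The libraries of the same 8 genes did not overlap, against 37.0% of all genes higher and 36.5% lower. The shares of the set that moved with induction were near those of all genes. The induction comparison in each virus shares libraries with each Cre comparison, and their values are given side by side below.

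The change with induction itself differed between Cre and EGFP cells for 3 of 9 genes, Notch3, Jag1 and Dll1, by the interaction of virus and induction in the same fit. All 3 interactions were negative, against 12.1% of all genes with a negative and 10.7% with a positive interaction at an adjusted p below 0.05.

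**Figure D2:**
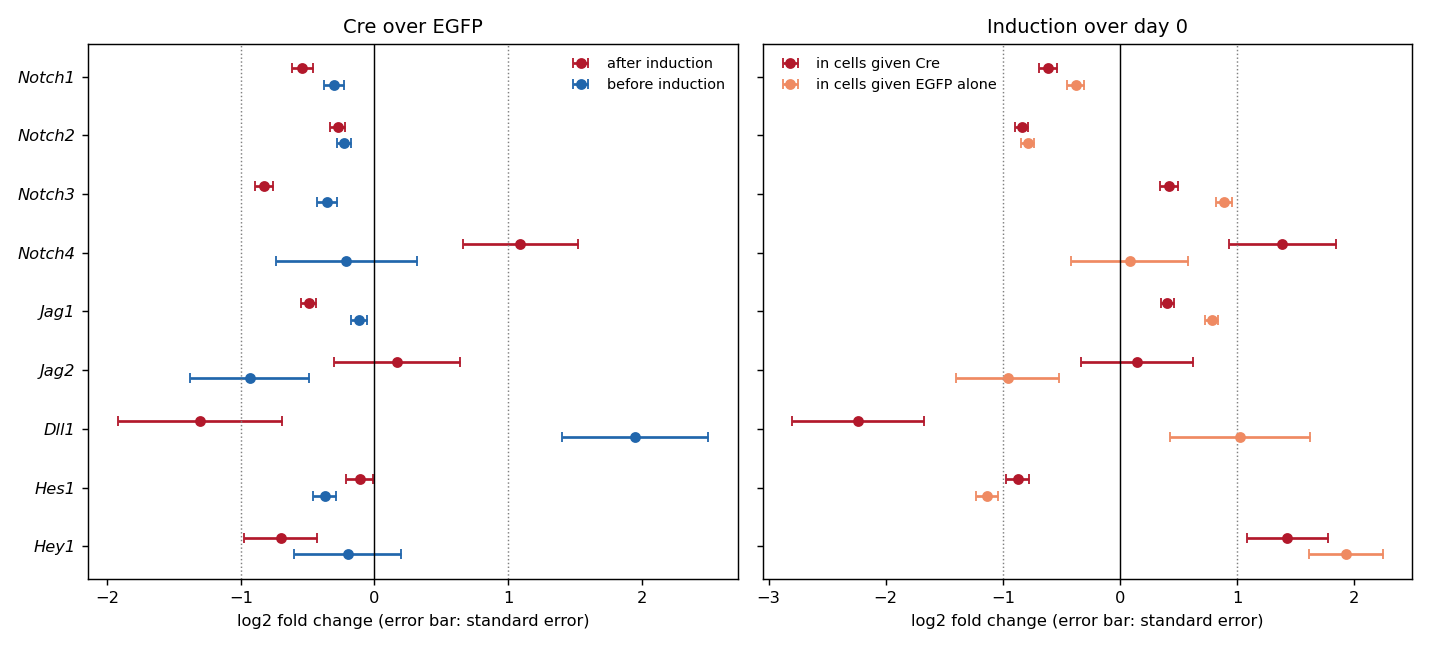
Log2 fold changes of the 9 tested genes with approximate standard errors derived from the test, for Cre over EGFP (left) and induction over day 0 (right). Dotted lines mark 2-fold. Notch1, Notch2 and Notch3 lie below 0 in both Cre comparisons, and the induction changes of Notch3 (0.42 in Cre cells and 0.89 in EGFP cells) and Jag1 (0.40 and 0.78) are smaller in Cre cells.

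Notch1, the receptor best known from T-cell development, lies on chr2:26347915-26406675 on the minus strand of GRCm39 and has 34 exons in its canonical transcript. It had 23.2, 26.1 and 25.2 CPM in OI-AdV-CRE-EGFP cells and 32.8, 38.0 and 37.5 CPM in OI-AdV-EGFP cells. At day 0 it had 40.8, 35.1 and 38.1 CPM in AdV-CRE-EGFP cells and 44.6, 45.02 and 51.3 CPM in AdV-EGFP cells. The Cre libraries were below the EGFP libraries at both times without overlap. The log2 fold change for Cre was -0.54 (SE 0.08, adjusted p = 4.9e-06) after and -0.30 (SE 0.07, adjusted p = 0.0027) before induction. Induction lowered Notch1 by 1.53-fold in Cre cells (adjusted p = 2.0e-07) and 1.30-fold in EGFP cells (adjusted p = 5.9e-05). The interaction was -0.23 (SE 0.11, adjusted p = 0.13) and missed the threshold.

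Notch2, a receptor whose gain of function causes the bone-loss disorder Hajdu-Cheney syndrome in humans, lies on chr3:97920800-98057677 on the plus strand and has 34 exons. It had 88.9, 88.0 and 89.7 CPM in OI-AdV-CRE-EGFP cells and 98.4, 119.5 and 104.9 CPM in OI-AdV-EGFP cells. Before induction it had 165, 150.1 and 162 CPM in AdV-CRE-EGFP cells and 185, 185 and 188 CPM in AdV-EGFP cells. The 4 groups followed each other without overlap, from OI-AdV-CRE-EGFP as the lowest to AdV-EGFP as the highest. Of the receptors it had the smallest adjusted p for induction, with log2 fold changes of -0.84 in Cre cells (SE 0.05, adjusted p = 9.6e-13) and -0.79 in EGFP cells (SE 0.05, adjusted p = 1.4e-12). The Cre differences were small, -0.28 (SE 0.06, adjusted p = 0.00031) after and -0.23 (SE 0.05, adjusted p = 0.0019) before induction, with an interaction of -0.05 (adjusted p = 0.70).

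Notch3, best known as the receptor of vascular smooth muscle and pericytes, lies on chr17:32339794-32385893 on the minus strand and has 33 exons. It had 32.8, 32.1 and 31.1 CPM in OI-AdV-CRE-EGFP cells and 52.0, 62.1 and 56.0 CPM in OI-AdV-EGFP cells. Before induction it had 23.4, 22.3 and 25.9 CPM in AdV-CRE-EGFP cells and 30.8, 29.7 and 31.2 CPM in AdV-EGFP cells. Every OI-AdV-EGFP library was above all other libraries, and the induced Cre libraries overlapped with the uninduced EGFP libraries. Cre lowered Notch3 by 1.77-fold after induction (log2 -0.82, SE 0.07, adjusted p = 5.6e-10) and by 1.28-fold before it (log2 -0.36, SE 0.08, adjusted p = 0.00088). Induction raised it by 1.34-fold in Cre cells (log2 0.42, SE 0.08, adjusted p = 2.6e-05) and 1.85-fold in EGFP cells (log2 0.89, SE 0.07, adjusted p = 2.1e-11). The interaction was -0.47 (SE 0.10, adjusted p = 0.0015).

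Beside this receptor, the summed list of 12 mural and smooth muscle markers, led by Acta2, moved the other way: it was 3014 to 3148 CPM in OI-AdV-CRE-EGFP, 2150 to 2232 CPM in OI-AdV-EGFP, 7813 to 8088 CPM in AdV-CRE-EGFP and 6284 to 6461 CPM in AdV-EGFP libraries. None of the 12 was at 0 in all libraries of a group. Acta2 averaged 1953, 1320, 5279 and 4114 CPM in the same order of groups, and Tagln and Cspg4 followed the sum as well. The pericyte genes Rgs5 (6.93, 11.2, 3.70 and 3.25 CPM), Abcc9 (1.29, 2.79, 1.06 and 0.318 CPM) and Kcnj8 (0.260, 0.286, 0.0214 and 0.0632 CPM) were instead highest in OI-AdV-EGFP cells, as Notch3 was. Pdgfrb averaged 269.9, 238, 232 and 176 CPM. The part of mural cells in the Notch3 values was not tested. In these bulk libraries fewer cells of a type and less RNA per cell cannot be told apart, for this and all genes below.

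Notch4, best known from endothelium, lies on chr17:34783220-34807477 on the plus strand with 30 exons and was at the detection limit. The counts were 18, 22 and 29 in OI-AdV-CRE-EGFP libraries and 14, 13 and 7 in OI-AdV-EGFP libraries. They were 15, 4 and 6 in AdV-CRE-EGFP and 12, 4 and 13 in AdV-EGFP libraries. The induced Cre libraries were the highest, at 1.09, 1.36 and 1.73 CPM, and the other 3 groups overlapped. The log2 fold change for Cre after induction was 1.09 (SE 0.43, adjusted p = 0.047), and the adjusted p stayed below 0.05 in only 7 of 17 alternative analyses (0.038 to 0.20). Induction in Cre cells gave 1.39 (SE 0.46, adjusted p = 0.0095), which became 1.08 (adjusted p = 0.059) without AdV-CRE-EGFP replicate 2. The deposited FPKM of Notch4 did not follow its counts: FPKM per CPM ranged 3.84-fold over the libraries, and the FPKM averaged 0.210 in OI-AdV-CRE-EGFP and 0.199 in OI-AdV-EGFP cells.

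The sum of the 13 endothelial markers was also highest in the induced Cre libraries, at 51.2 to 56.9 CPM in OI-AdV-CRE-EGFP, 34.2 to 38.5 CPM in OI-AdV-EGFP, 29.9 to 35.5 CPM in AdV-CRE-EGFP and 11.4 to 15.1 CPM in AdV-EGFP libraries. Most of this was Kdr (30.7, 11.8, 14.5 and 2.41 CPM in the same order of groups) and Flt1 (16.8, 13.9, 6.51 and 3.54 CPM). Other genes of the list were highest elsewhere: Tek averaged 1.65, 5.36, 1.35 and 1.19 CPM, Erg 0.908, 2.15, 0.984 and 1.10 CPM, Vwf 1.83, 0.910, 3.56 and 1.38 CPM, and Egfl7 1.03, 0.776, 1.81 and 2.25 CPM. Of the defining genes, Pecam1 was below 1 CPM in every group (at most 0.707), Cdh5 averaged 0.687, 0.363, 3.07 and 0.575 CPM, and Tie1, Sox17 and Cldn5 were each at 0 in all libraries of 2 or 3 groups. The part of endothelial cells in the Notch4 values was not tested.

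As a share of the summed receptor FPKM, Notch2 fell and Notch3 rose with induction. The 4 receptors summed to 15.3 ± 0.267 FPKM in OI-AdV-CRE-EGFP cells, 21.7 ± 1.89 FPKM in OI-AdV-EGFP cells, 21.8 ± 1.24 FPKM in AdV-CRE-EGFP cells and 26.9 ± 0.780 FPKM in AdV-EGFP cells (SD, n = 3 each). Notch3 made up 26.6% ± 1.14 and 33.4% ± 0.556 of this sum in induced Cre and induced EGFP cells, and 13.4% ± 0.807 and 14.5% ± 0.279 at day 0 in Cre and EGFP cells. Notch2 made up 55.0% ± 1.23 and 47.9% ± 0.732 after induction and 68.2% ± 0.442 and 66.5% ± 1.19 at day 0 in Cre and EGFP cells. The libraries of induced and day 0 cells did not overlap for either share. Notch1 kept a mean share of 17.0% to 18.6% in the 4 groups.

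**Figure D3:**
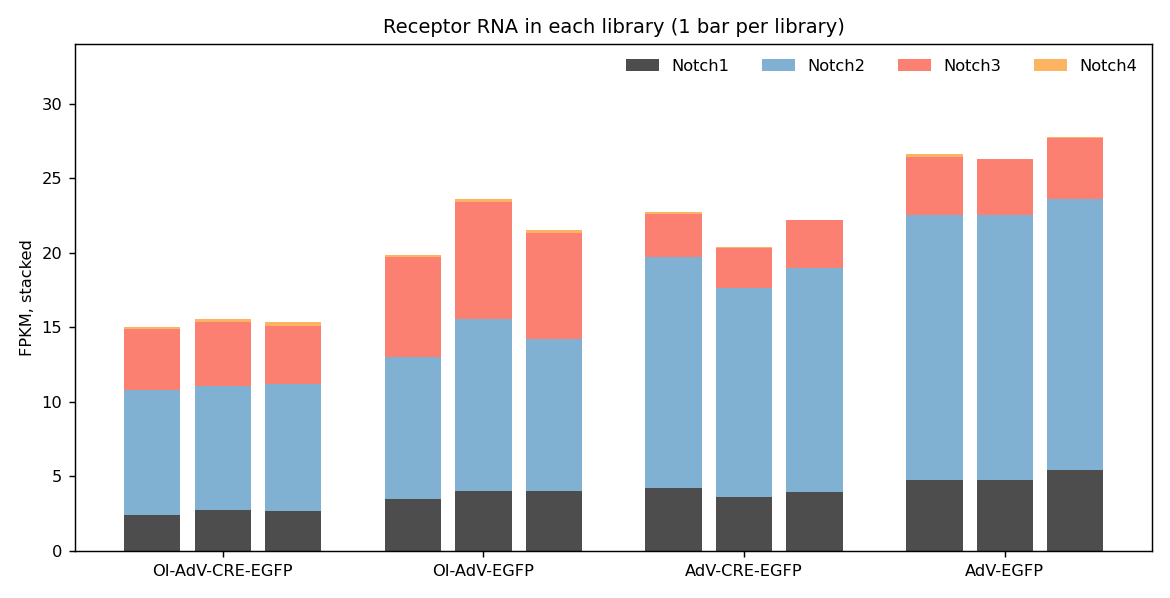
Stacked FPKM of the 4 Notch receptors, with 1 bar per library and 3 bars per group. The bars of OI-AdV-CRE-EGFP are the lowest (15.3 FPKM on average), and Notch3 fills more of each bar after induction (26.6% and 33.4%) than at day 0 (13.4% and 14.5%).

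Jag1, the Jagged ligand mutated in human Alagille syndrome, lies on chr2:136923373-136958693 on the minus strand and has 26 exons. It had 53.4, 53.3 and 49.3 CPM in OI-AdV-CRE-EGFP cells and 72.9, 71.4 and 74.8 CPM in OI-AdV-EGFP cells. Before induction it had 41.8, 37.4 and 38.5 CPM in AdV-CRE-EGFP cells and 42.4, 43.3 and 41.7 CPM in AdV-EGFP cells. The induced groups lay apart from each other and above both day 0 groups, whose libraries overlapped. After induction Jag1 was 1.41-fold lower in Cre cells (log2 -0.49, SE 0.05, adjusted p = 8.6e-08), whereas at day 0 the difference did not pass the test (log2 -0.11, SE 0.06, adjusted p = 0.16, 0.041 to 0.43 over 17 alternatives). Induction raised Jag1 by 1.32-fold in Cre cells (adjusted p = 1.2e-06) and 1.72-fold in EGFP cells (adjusted p = 4.0e-12). The interaction was -0.38 (SE 0.08, adjusted p = 0.0012).

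Of the genes with a promoter window, Notch3 and Jag1 were those whose own CPM was higher in induced EGFP cells than in the other groups, and their windows are shown for this reason. The windows are from RefSeq on GRCm38.p6 and run from 250 bases before to 50 bases after the start site, written 5′ to 3′ on the strand of the gene, Notch3 at chr17:32166841-32167140 and Jag1 at chr2:137116471-137116770. Capitals mark the N-box CACNAG and the class C E-box CACGNG, letters that HES and HEY repressors are known to bind, on either strand.
Notch3: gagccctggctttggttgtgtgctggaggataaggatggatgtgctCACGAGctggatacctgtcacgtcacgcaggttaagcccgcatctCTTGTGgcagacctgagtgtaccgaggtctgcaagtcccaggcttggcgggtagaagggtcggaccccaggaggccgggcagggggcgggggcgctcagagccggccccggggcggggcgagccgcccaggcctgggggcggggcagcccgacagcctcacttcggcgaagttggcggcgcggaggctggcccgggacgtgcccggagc
Jag1: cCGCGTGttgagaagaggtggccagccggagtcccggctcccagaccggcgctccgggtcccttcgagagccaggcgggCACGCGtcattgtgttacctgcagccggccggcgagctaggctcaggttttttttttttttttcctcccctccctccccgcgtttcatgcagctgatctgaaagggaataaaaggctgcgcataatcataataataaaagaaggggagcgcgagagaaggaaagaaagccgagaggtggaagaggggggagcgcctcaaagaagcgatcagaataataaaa
The Notch3 window held an N-box 204 bases before the start site that is also a class C site, where the 2 motifs overlap, and an N-box 159 bases before it. The Jag1 window held class C sites 249 and 171 bases before the start site. Over all 32851 windows of this length, 42.5% held an N-box and 27.5% a class C site on either strand, against 4 and 6 of the 8 windows that matched 7 of the genes in the set (Notch1, Notch2, Notch3, Notch4, Jag1, Jag2 and Dll1). The core TGGGAA bound by RBPJ and the sequence GGGGCCCC bound by PLAGL1 were in 25.6% and 1.08% of all windows and in 0 of these 8. A match or its absence in these windows is a description of letters only.

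Jag2, the Jagged ligand known from palate and limb development, lies on chr12:112871421-112893437 on the minus strand with 26 exons and was weakly detected. It had 15, 7 and 27 counts in OI-AdV-CRE-EGFP and 7, 27 and 12 counts in OI-AdV-EGFP libraries, and 14, 12 and 16 counts in AdV-CRE-EGFP and 16, 32 and 33 counts in AdV-EGFP libraries. All 4 groups overlapped except the day 0 pair, in which each EGFP library was above each Cre library by CPM. No comparison passed the test, with log2 fold changes of 0.17 (SE 0.47) and -0.93 (SE 0.45) for Cre after and before induction and 0.15 (SE 0.48) and -0.96 (SE 0.44) for induction in Cre and EGFP cells. The last of these had an adjusted p of 0.051 and became -1.66 (adjusted p = 0.0049) without OI-AdV-EGFP replicate 2 and -1.23 (adjusted p = 0.019) without AdV-EGFP replicate 1.

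Dll1, the Delta-like ligand known from somite segmentation, lies on chr17:15587276-15597134 on the minus strand with 11 exons. It had 1, 1 and 10 counts in OI-AdV-CRE-EGFP libraries and 11, 12 and 9 counts in OI-AdV-EGFP libraries. At day 0 it had 20, 20 and 15 counts in AdV-CRE-EGFP libraries and 2, 7 and 5 counts in AdV-EGFP libraries. AdV-CRE-EGFP was the highest group without overlap, at 1.22, 1.32 and 0.963 CPM, and replicate 3 of OI-AdV-CRE-EGFP stood apart from the other two. Dll1 was higher in Cre cells at day 0 (log2 1.95, SE 0.55, adjusted p = 0.0083). With induction it fell by 2.23 on the log2 scale in Cre cells (SE 0.56, adjusted p = 0.0011) and differed by 1.02 (SE 0.60, adjusted p = 0.12) in EGFP cells, with an interaction of -3.26 (SE 0.83, adjusted p = 0.0050). The Cre difference after induction was -1.31 (SE 0.62, adjusted p = 0.095), and -3.17 (adjusted p = 0.0036) without OI-AdV-CRE-EGFP replicate 3. Without that library the induction change in Cre cells was -4.09 (adjusted p = 3.3e-05) and the interaction -5.12 (adjusted p = 0.00026). These values rest on few counts. Of the summed FPKM of the 3 ligands, Jag1 held 96.7% and 97.1% in induced Cre and EGFP cells and 92.3% and 94.5% at day 0, and Dll1 held 4.88% in AdV-CRE-EGFP and 1.02% in AdV-EGFP cells. The FPKM per CPM of Jag2 and Dll1 ranged 1.80-fold and 1.35-fold over the libraries, and these shares carry that spread.

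Hes1, a basic helix-loop-helix repressor and the most abundant target of the set, lies on chr16:29882134-29886643 on the plus strand with 4 exons. It had 10.9, 11.7 and 9.96 CPM in OI-AdV-CRE-EGFP and 12.1, 12.03 and 11.04 CPM in OI-AdV-EGFP cells. At day 0 it had 20.8, 18 and 20.9 CPM in AdV-CRE-EGFP and 27.2, 24.1 and 25.9 CPM in AdV-EGFP cells. The induced libraries overlapped between the viruses and lay below all day 0 libraries, among which the Cre libraries were the lower. Induction lowered Hes1 by 1.83-fold in Cre cells (log2 -0.87, SE 0.10, adjusted p = 1.3e-08) and 2.20-fold in EGFP cells (log2 -1.14, SE 0.09, adjusted p = 3.7e-11). Cre gave -0.37 (SE 0.09, adjusted p = 0.0019) before induction and -0.11 (SE 0.10, adjusted p = 0.41) after it, and the interaction of 0.26 (SE 0.13, adjusted p = 0.17) does not show that these differ.

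Hey1, a Hairy-related repressor known to be induced by Notch and by BMP in osteoblast precursors, lies on chr3:8726956-8732385 on the minus strand with 5 exons. The counts were 29, 23 and 22 in OI-AdV-CRE-EGFP and 41, 47 and 40 in OI-AdV-EGFP libraries. They were 11, 8 and 7 in AdV-CRE-EGFP and 10, 9 and 11 in AdV-EGFP libraries. The induced groups were apart from each other and from the day 0 libraries, and the day 0 groups overlapped. In CPM, Hey1 averaged 1.49 ± 0.229 in OI-AdV-CRE-EGFP, 2.44 ± 0.279 in OI-AdV-EGFP, 0.549 ± 0.111 in AdV-CRE-EGFP and 0.633 ± 0.0534 in AdV-EGFP cells. Induction raised it by 2.69-fold in Cre cells (log2 1.43, SE 0.34, adjusted p = 0.00073) and 3.81-fold in EGFP cells (log2 1.93, SE 0.31, adjusted p = 5.8e-06). Hes1 and Hey1 thus moved in opposite directions with induction in both viruses. After induction Hey1 was lower in Cre cells (log2 -0.70, SE 0.27, adjusted p = 0.042), a value that stayed below 0.05 in 9 of 17 alternatives (0.034 to 0.14). At day 0 the difference was -0.20 (SE 0.40, adjusted p = 0.76), and the interaction was -0.50 (SE 0.49, adjusted p = 0.51).

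Heyl, a related repressor on chr4:123127349-123143682 (plus strand, 5 exons), had 2, 2 and 2 counts in OI-AdV-CRE-EGFP and 3, 12 and 12 counts in OI-AdV-EGFP libraries, and 0, 0 and 2 counts in AdV-CRE-EGFP and 4, 1 and 0 counts in AdV-EGFP libraries. The induced EGFP libraries held most of its counts, 27 against 6 in the induced Cre libraries, which gives a depth-corrected ratio of 0.236 for Cre over EGFP (exact 95% interval 0.0797 to 0.583, for counting error only). For induction in EGFP cells the ratio was 4.86 (1.84 to 16.2) from 27 and 5 counts. Fitted without a filter, edgeR gave Heyl an adjusted p of 0.069 for Cre after induction and 0.030 for induction in EGFP cells, and DESeq2 gave 0.14 and 0.073.

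The other genes of the pathway, 67 in 8 lists, of which 58 were tested, were called about as often as all genes with Cre after induction: 8 were higher and 15 lower at an adjusted p below 0.05, against 19.8% and 20.6% of all genes, and only Dlk1 was called at 2-fold (lower, against 2.61%). Before induction 11 were higher and 9 lower, against 15.8% and 13.5%, with a 2-fold call in Aph1c alone (higher, against 2.6%). With induction 17 were higher and 28 lower in Cre cells, against 35.9% and 35.3% of all genes, and 21 higher and 19 lower in EGFP cells, against 39.7% and 36.5%. At 2-fold, 3 were called higher and 3 lower in Cre cells, against 12% and 8.62%, and 5 higher and 4 lower in EGFP cells, against 15.1% and 10.8%. The median log2 fold changes of the 58 genes were -0.02 and 0.03 for Cre after and before induction and -0.14 and -0.01 for induction in Cre and EGFP cells.

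Among the further ligands, Dlk1, a non-canonical ligand known as a preadipocyte and imprinted factor, averaged 35.0 ± 7.92 CPM in OI-AdV-CRE-EGFP and 112 ± 15.6 CPM in OI-AdV-EGFP cells, a log2 fold change of -1.68 (SE 0.10, adjusted p = 1.6e-12). It was raised by induction in EGFP cells (112 ± 15.6 CPM against 34.2 ± 1.91 CPM in AdV-EGFP, log2 1.71, adjusted p = 1.3e-13), and its interaction was -1.999 (adjusted p = 3.6e-10). In the other comparisons it differed from Notch3 and Jag1 in sign, at 0.32 for Cre at day 0 (adjusted p = 0.034) and -0.29 for induction in Cre cells (adjusted p = 0.024). Dll3 and Dll4, with 4 and 24 counts over the 12 libraries, were not tested.

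Of the 10 genes for processing enzymes, Psen2, a catalytic γ-secretase subunit, was higher after induction in both viruses (26.0 ± 1.77 CPM against 11.8 ± 3.31 CPM in Cre cells and 22.1 ± 2.09 CPM against 10.2 ± 0.260 CPM in EGFP cells, log2 1.13 and 1.11). Aph1c, another γ-secretase subunit, had 3.62 ± 0.433 CPM in OI-AdV-EGFP and 0.930 ± 0.304 CPM in AdV-EGFP cells (log2 1.95, adjusted p = 7.6e-07), and 2.65 ± 0.9004 CPM in AdV-CRE-EGFP cells (log2 1.51 over AdV-EGFP, adjusted p = 0.00029). Below 2-fold, Aph1c was also higher with induction in Cre cells (log2 0.86, adjusted p = 0.0014), and its interaction was -1.09 (SE 0.36, adjusted p = 0.032). Aph1c is a close copy of Aph1b, and whether the counting split reads between them was not tested, so that its value is uncertain. Of the glycosyltransferases, Lfng was raised by induction in Cre cells (8.75 ± 0.902 CPM against 3.93 ± 0.498 CPM, log2 1.151, adjusted p = 1.5e-07) and, below 2-fold, in EGFP cells (log2 0.94, adjusted p = 9.1e-07), with an interaction of 0.22 (adjusted p = 0.49).

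In the nucleus, Rbpj, the DNA-binding partner of all Notch receptors, was called lower with induction in both viruses. Below 2-fold, it was also lower in Cre than in EGFP cells, at log2 -0.24 (adjusted p = 5.8e-05) after and -0.19 (adjusted p = 0.00037) before induction. It averaged 95.6 ± 4.18 CPM in OI-AdV-CRE-EGFP and 272 ± 2.19 CPM in AdV-CRE-EGFP cells (log2 -1.51, SE 0.04, adjusted p = 2.0e-20), and 113 ± 2.14 CPM in OI-AdV-EGFP and 311 ± 4.27 CPM in AdV-EGFP cells (log2 -1.46, SE 0.04, adjusted p = 1.5e-20). The other 8 genes of the nuclear complex were not called at 2-fold in any comparison. By the adjusted p alone, the interaction was negative for Maml2 (-0.33, adjusted p = 0.0064) and Snw1 (-0.29, adjusted p = 0.0086). It was positive for no gene of this list, against 12.1% of all genes with a negative and 10.7% with a positive interaction. Both genes were also lower with Cre after induction (log2 -0.42 and -0.20, adjusted p = 5.3e-06 and 0.0043), and no gene of the list was higher. Of the 13 corepressors, Cir1 was higher (44.1 ± 0.705 CPM against 20.6 ± 1.71 CPM, log2 1.10) with induction in EGFP cells.

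Of the genes for receptor turnover, Dtx3l, a Deltex-related ubiquitin ligase, was higher with induction (23.6 ± 3.92 CPM against 5.11 ± 0.758 CPM in Cre cells, 33.1 ± 4.01 CPM against 7.49 ± 0.788 CPM in EGFP cells, log2 2.21 and 2.14). Neurl3, of the ligand endocytosis list, was lower with induction at below 1 CPM (log2 -3.65 in Cre and -2.85 in EGFP cells). Of the further basic helix-loop-helix genes, Bhlhe40, also a clock repressor, was lower with induction (33.0 ± 3.28 CPM against 113 ± 5.31 CPM in Cre cells, 18.3 ± 1.56 CPM against 77.7 ± 3.50 CPM in EGFP cells, log2 -1.78 and -2.09), whereas Hes2, Hes3, Hes5, Hes7 and Nrarp were too low to be tested. The interaction passed the test for 15 of the 58 genes, 4 positive and 11 negative, against 10.7% and 12.1% of all genes. Among them, beside Dlk1 as given above, were Aph1c at -1.09, Bhlhe41 at -0.74, Tle1 at -0.58 and Tle3 at 0.42.

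**Figure D4:**
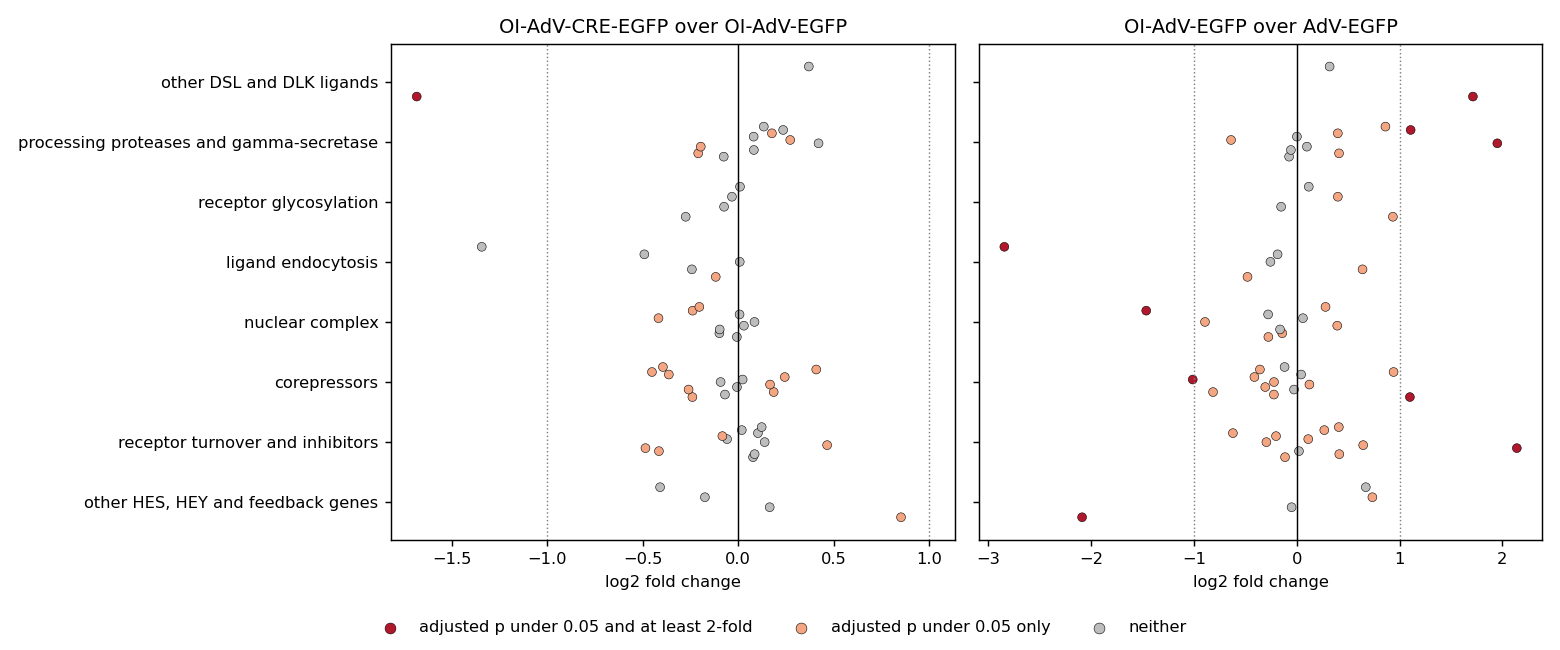
Log2 fold changes of the 58 tested genes of the 8 pathway lists for Cre over EGFP after induction (left) and for induction over day 0 in EGFP cells (right), with 1 point per gene coloured by its call. On the left only Dlk1 (-1.68) passes the adjusted p beyond 2-fold, and on the right 5 genes lie above and 4 below.

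For each gene called in at least 1 comparison, the 3 closest of 5718 called genes were found by the root mean square difference of centred log2 CPM over the 12 libraries, given here as a description. Jag1 was closest to Slc44a1 (0.0700), Acvr2a (0.0711) and Sgce (0.0712), and Hes1 to Btg2 (0.0806), Rbmx (0.0806) and Socs5 (0.0910). Notch3 was closest to Sardh (0.106), Ldlrad3 (0.109) and Tox (0.120), and Hey1 to Col6a2 (0.142), Thra (0.155) and Pdp1 (0.158). The genes with few counts had looser matches, Notch4 with B3gnt3 (0.442), Cnr2 (0.443) and Mob3c (0.465), and Dll1 with Cnr1 (0.637) and Col9a3 (0.658) among its 3.

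The marker lists of other cell types also moved between groups. The 10 macrophage and osteoclast markers summed to 1462 to 1518 CPM in OI-AdV-CRE-EGFP, 965 to 996 CPM in OI-AdV-EGFP, 842 to 914 CPM in AdV-CRE-EGFP and 424 to 444 CPM in AdV-EGFP libraries, led by Ctsk (848, 392, 562 and 157 CPM), while Ptprc averaged 6.29, 6.18, 5.73 and 4.93 CPM. The 11 chondrocyte markers summed to 106 to 114, 129.7 to 139, 96.6 to 101 and 88.1 to 89.8 CPM in the same order of groups. This sum was led by Sox9 (49.2, 53.1, 52.2 and 38.1 CPM) and Hapln1 (22.2, 33.3, 12.7 and 11.4 CPM). The cartilage matrix genes Acan (1.23, 1.07, 3.29 and 5.50 CPM) and Col2a1 (4.70, 5.82, 5.49 and 8.95 CPM) were highest in AdV-EGFP cells, where the sum was lowest. The 8 Schwann and neural crest glia markers summed to 26.5 to 30.9, 36.5 to 40.1, 11.3 to 11.9 and 8.88 to 10.5 CPM. Their part in the Notch values was not tested.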

How the data were processed

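Libraries of 12 samples were made with the NEBNext Ultra II kit and sequenced on a NovaSeq. The authors used Cutadapt for trimming, HISAT2 for alignment (GRCm39) and HTSeq for counting. Strand setting and annotation release are not given in the sources used here. Deposited were estimated counts per gene, not whole for 1646 to 1844 genes per library, and FPKM that the authors computed from the counts. FPKM was used to compare genes by length, for the receptor sums and the receptor and ligand shares in each group, and beside the CPM of Notch4. It was taken as given by the authors, without the scaling applied to CPM, and no test used it.

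Counts were rounded, filtered with filterByExpr over the 4 groups (13670 of 22063 genes kept) and fitted with edgeR 4.0.16 (R 4.3.3, limma 3.58.1) as 1 model of 4 group means, with trimmed mean of M-values scaling and the quasi-likelihood F test, after a test on simulated data. A gene was called at an adjusted p (Benjamini-Hochberg over all genes tested) below 0.05 with a log2 fold change of 1 or more in size, and an interaction at the adjusted p alone. Each standard error (SE) was derived from this test, as the size of the log2 fold change divided by the square root of F, and is approximate. Groups of 3 cannot reach p = 0.05 in a two-sided exact permutation test, so none was run. The 17 alternatives were other scaling, no filter, a replicate block, DESeq2 1.42.0 and each library left out.

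Every gene of the set was described. Of the pathway lists the called genes were named, at most 4 per list and comparison by size, and for genes of the set called at least once the 3 nearest profiles; 2 genes that these rules name are not reported here. The genes of the set and all lists were chosen with earlier results of these data known. No 2 libraries of a group agreed within counting noise (chi-square per gene 2.18 to 5.24), and each was used once.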

Additional observations from a re-analysis of the deposited data

Results flagged for a closer look

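The effect of Cre differed between induced and day 0 cells for 3 genes of the set by the interaction term of the edgeR fit. For Notch3 the interaction was -0.47 on the log2 scale (SE 0.10, adjusted p = 0.0015), with all 3 Cre libraries below all 3 EGFP libraries at both times. For Jag1 it was -0.38 (SE 0.08, adjusted p = 0.0012), with the libraries apart after induction and overlapping before it. For Dll1 it was -3.26 (SE 0.83, adjusted p = 0.0050), at 1 to 20 counts per library, and -5.12 without OI-AdV-CRE-EGFP replicate 3.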

How the results depend on the processing

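Of the counts of genes called in the 5 comparisons, 72 of the values under alternatives stayed within 1.5 times the first value and 13 did not. These values compare how many genes were called and not which ones. The single call for Cre after induction, Notch4, became 0 with library totals alone, 0 with DESeq2 and 0 with the replicate block, and 0 to 2 with 1 library left out, where 2 are Notch4 and Heyl, which passes the filter in smaller groups. Where 1 call was left with a library removed, it was not Notch4. It was Dll1 without OI-AdV-CRE-EGFP replicate 3, and Heyl without OI-AdV-EGFP replicate 1 or AdV-CRE-EGFP replicate 3. The 2 calls for induction in EGFP cells became 2 to 4 with 1 library left out, and 4 without AdV-EGFP replicate 1 (Jag2, Hes1, Heyl and Hey1). The replicate block changed no other count by over 1.5 times. Replicate numbers did not pair the libraries: over 18 pairs of equal number the correlation of deviations was -0.0515 to 0.0371, with 0 over 0.1. Of the single fold changes, 740 kept their direction and their call (adjusted p and 2-fold together, adjusted p alone for the interaction), 11 lost this call, 3 gained it and 11 changed sign, and no gene that changed sign was called in that comparison. These were Jag2 for Cre after induction (-0.39 to 0.87 with 1 library left out) and for induction in Cre cells (-0.40 to 0.50), Notch4 for Cre before induction (-0.91 to 0.0945) and for induction in EGFP cells (-0.29 to 0.36), and the interaction of Notch2 (-0.11 to 0.0327). Scaling by library totals or RLE factors moved the median of all genes by at most 0.043 (log2) in size. Notch4, Jag2, Dll1 and Heyl are limited by depth, with 33 counts or fewer in every library. The causes were not tested.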
